A study of Homo sapiens with 20 samples.

Results

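The 3 regions described here hold the large heterochromatic blocks of chromosomes 1, 9 and 16 together with the sequence beside them. They were 115 to 150 Mb of chromosome 1, 38 to 83 Mb of chromosome 9 and 30 to 57 Mb of chromosome 16 of the CHM13 v1.0 assembly. A peak belonged to a region when its centre lay inside it. In all, 2841 of the 191415 cohesin peaks in 6 lists met this rule. The regions held 1030 RAD21, 592 SA1 and 643 SA2 peaks of CHM13 cells, and 287 RAD21, 148 SA1 and 141 SA2 peaks of RPE-1 cells. ChIP-seq, which sequences the DNA precipitated with an antibody against a protein, was performed for each subunit in each of 2 cell lines, with 3 libraries per subunit in CHM13 and 2 in RPE-1, and with input chromatin, for 20 libraries in all. The CHM13 line comes from a mole pregnancy (complete hydatidiform) and the RPE-1 line from human retinal pigment epithelium. Both were immortalised with hTERT and the labels give no treatment. SA1 and SA2 were precipitated with the same antibodies in both lines, RAD21 with a different antibody in each line. The lines also differed in the sonicator and in read depth, and chromatin of Drosophila cells was added to the CHM13 samples alone. A difference between the lines cannot be told apart from these steps.

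Cohesin is a ring-shaped complex that holds sister chromatids together and extrudes chromatin loops. RAD21 closes the ring, and each complex carries either SA1 or SA2, which contact both RAD21 and the boundary factor CTCF. The long arms of chromosomes 1, 9 and 16 begin, beside the α-satellite of the centromere, with large blocks of heterochromatin that vary in length between people. Those of chromosomes 1 and 16 are known for satellite 2 and that of chromosome 9 for satellite 3, which are both built of diverged copies of the unit CATTC. No map of the satellites of CHM13 v1.0 was used here, so bins are given by position and not by repeat class.

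The sequence of these blocks is mostly absent from hg38, where each is a run of unknown bases (N). The runs lay at chr1:125184588-143184587 (18 Mb), chr9:45518559-60518558 (15 Mb) and chr16:38280683-46380682 (8.1 Mb). The 300 bp at the centre of the CHM13 RAD21 peak nearest to each run are shown. Peaks of other lists lay nearer to some runs. The last 1 Mb before that of chromosome 9 held 9 SA1, 7 SA2 and 0 RAD21 peaks of CHM13 cells and 2 RAD21 peaks of RPE-1 cells. The windows are read 5′ to 3′ on the + strand of hg38, and none lies in a gene of GENCODE 44. Capitals mark CATTC or its reverse complement GAATG in all but the long-arm window of chromosome 9, where they mark AGGNGGC on either strand, a stretch of the CTCF motif. They mark a match of letters alone, and no window was assigned to a repeat class.
Chromosome 1, short-arm side, chr1:125182303-125182602: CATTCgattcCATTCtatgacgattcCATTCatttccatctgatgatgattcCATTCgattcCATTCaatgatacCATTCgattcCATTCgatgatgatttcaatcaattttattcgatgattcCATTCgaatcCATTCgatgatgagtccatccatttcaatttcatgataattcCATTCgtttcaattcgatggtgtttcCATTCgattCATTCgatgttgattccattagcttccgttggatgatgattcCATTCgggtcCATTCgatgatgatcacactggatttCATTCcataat
Chromosome 1, long-arm side, chr1:143214425-143214724: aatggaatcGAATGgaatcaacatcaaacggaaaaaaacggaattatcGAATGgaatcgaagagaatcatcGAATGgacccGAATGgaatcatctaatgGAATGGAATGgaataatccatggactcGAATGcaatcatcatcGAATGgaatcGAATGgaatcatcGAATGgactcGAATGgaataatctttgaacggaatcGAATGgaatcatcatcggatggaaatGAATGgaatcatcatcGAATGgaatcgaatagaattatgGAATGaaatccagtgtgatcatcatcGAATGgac
Chromosome 16, short-arm side, chr16:34595167-34595466: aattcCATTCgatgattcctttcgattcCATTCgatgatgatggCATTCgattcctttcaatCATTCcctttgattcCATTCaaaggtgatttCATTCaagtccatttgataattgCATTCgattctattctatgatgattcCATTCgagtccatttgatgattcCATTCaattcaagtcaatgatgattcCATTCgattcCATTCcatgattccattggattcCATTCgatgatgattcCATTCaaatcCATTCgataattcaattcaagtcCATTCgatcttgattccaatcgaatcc
Chromosome 16, long-arm side, chr16:46386307-46386606: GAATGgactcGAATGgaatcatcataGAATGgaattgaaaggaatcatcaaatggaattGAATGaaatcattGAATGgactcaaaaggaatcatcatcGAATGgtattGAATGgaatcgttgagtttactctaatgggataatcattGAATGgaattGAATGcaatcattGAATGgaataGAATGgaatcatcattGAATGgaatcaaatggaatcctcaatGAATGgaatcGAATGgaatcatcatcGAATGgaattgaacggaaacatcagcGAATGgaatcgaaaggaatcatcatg
Chromosome 9, short-arm side, chr9:44037641-44037940: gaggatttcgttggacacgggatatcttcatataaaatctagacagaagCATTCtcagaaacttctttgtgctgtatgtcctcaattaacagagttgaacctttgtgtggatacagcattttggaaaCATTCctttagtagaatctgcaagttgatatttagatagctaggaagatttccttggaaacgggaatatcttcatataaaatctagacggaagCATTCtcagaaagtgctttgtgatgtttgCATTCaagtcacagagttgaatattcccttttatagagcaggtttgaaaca
Chromosome 9, long-arm side, chr9:60838151-60838450: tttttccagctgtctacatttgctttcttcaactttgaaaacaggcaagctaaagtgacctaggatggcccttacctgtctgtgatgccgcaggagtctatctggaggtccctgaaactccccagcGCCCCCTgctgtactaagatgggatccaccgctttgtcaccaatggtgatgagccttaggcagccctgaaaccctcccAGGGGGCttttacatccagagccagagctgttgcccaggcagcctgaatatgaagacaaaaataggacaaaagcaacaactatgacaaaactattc

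The windows of chromosomes 1 and 16 were rich in the satellite unit. CATTC or GAATG made up 25% of the bases on the short-arm side and 26.7% on the long-arm side, on each of these chromosomes. The windows of chromosome 9 differed from them, with 6.67% on the short-arm side and 0% on the long-arm side. Of all 73881 CHM13 RAD21 peaks on hg38, 0.127% had at least 10% of such bases in the central 300 bp, and of 35116 RefSeq promoters of the same length 0.0342%. The peaks at the run of chromosome 1 lay 2.14 kb and 30.0 kb from the unknown bases and were present in all 6 lists. The long-arm peak of chromosome 16 lay 5.77 kb from the run and overlapped SA1 and SA2 peaks of CHM13 cells, without a peak of RPE-1 cells. The short-arm peak of chromosome 16 was 3685 kb from the run and was shared with SA1 and SA2 of CHM13 and RAD21 of RPE-1 cells. On chromosome 9 the nearest RAD21 peaks of CHM13 cells were 1481 kb away on the short-arm side, shared with SA1, and 320 kb away on the long-arm side, shared with SA1 and with RAD21 of RPE-1 cells. AGGNGGC occurred 2 times in the last of these windows and in none of the other 5. It was present in 26.8% of the windows of all CHM13 RAD21 peaks and in 35.9% of the promoters.

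On CHM13 v1.0, cohesin was sparser in each of the 3 regions, taken whole, than in the rest of its chromosome. Peak density, the number of peaks per Mb, in CHM13 cells was 9.63 (RAD21), 5.53 (SA1) and 6.01 (SA2), against 28.4, 14.0 and 16.3 in the rest of the same chromosomes. The ratio of region to rest was 0.339 for RAD21 (95% exact interval 0.317 to 0.361), 0.394 for SA1 (0.361 to 0.429) and 0.368 for SA2 (0.339 to 0.399). The RPE-1 ratios were 0.410 for RAD21 (0.362 to 0.463), 0.333 for SA1 (0.279 to 0.394) and 0.350 for SA2 (0.292 to 0.416). The intervals cover counting error only, since each list pools its replicates and gives no height. Read depth, which the paper reports per library, was lower in RPE-1 libraries than in most CHM13 libraries. A CHM13 RAD21 replicate had the fewest reads of all. Counts were not adjusted for depth.

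Chromosome 9 was the poorest region in CHM13 cells and chromosome 1 the richest. RAD21 density relative to the rest was 0.200 (0.175 to 0.227) on chromosome 9, 0.310 (0.268 to 0.357) on chromosome 16 and 0.544 (0.498 to 0.593) on chromosome 1, with no overlap of the intervals. SA1 followed the same order at 0.211, 0.395 and 0.636, and SA2 at 0.211, 0.349 and 0.594. In RPE-1 cells chromosomes 9 and 16 could not be separated, at 0.316 (0.248 to 0.399) and 0.313 (0.233 to 0.412) for RAD21, and chromosome 1 was again highest at 0.617 (0.517 to 0.731).

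**Figure D1:**
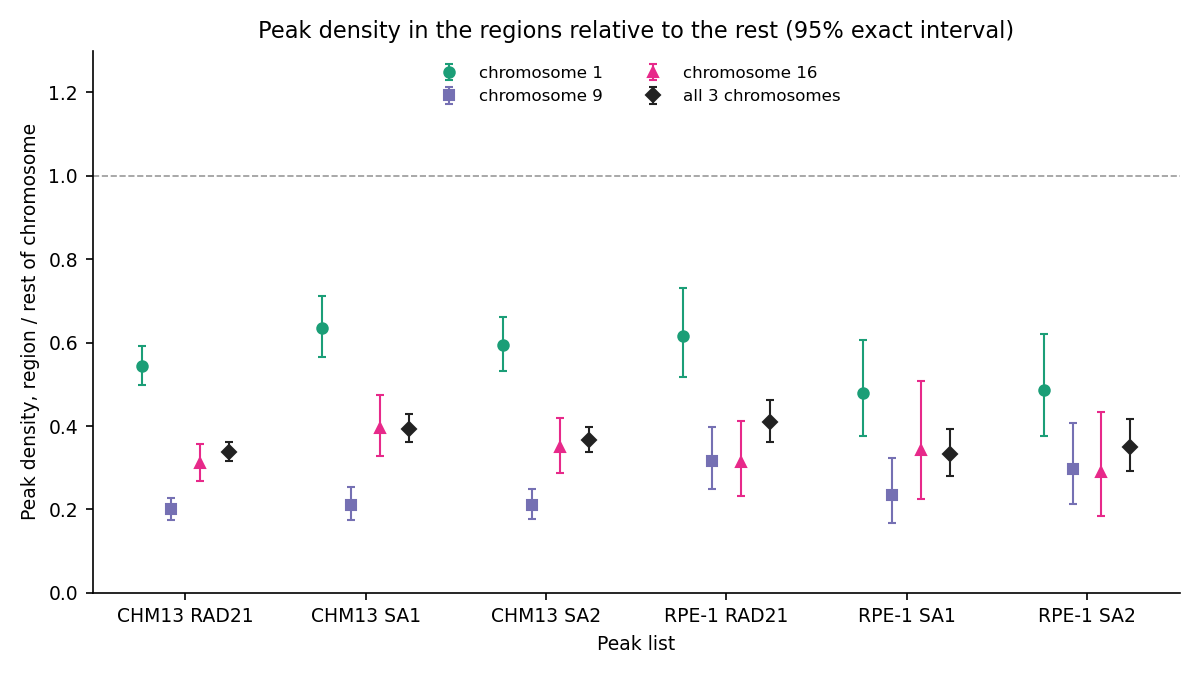
Peak density in each region divided by that of the rest of the same chromosome (vertical axis, ratio), for the 6 lists (horizontal axis). Points are chromosomes 1, 9 and 16 and their sum, bars are 95% exact intervals and the dashed line marks equal density; the summed ratios lie between 0.333 and 0.410.

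Part of the deficit lay in empty bins, which were more frequent in the regions than over all chromosomes in each list. Of the 107 bins of 1 Mb, RAD21 of CHM13 cells had no peak in 60, SA1 in 43 and SA2 in 46. In RPE-1 cells the empty bins numbered 67 for RAD21, 66 for SA1 and 62 for SA2. Over chromosomes 1 to 22 and X, the empty share in CHM13 cells was 8.43% (RAD21), 8.89% (SA1) and 9.25% (SA2), and in RPE-1 cells 17.0%, 18.8% and 21.9%. Empty bins of CHM13 RAD21 numbered 16 of 35 on chromosome 1, 31 of 45 on chromosome 9 and 13 of 27 on chromosome 16. The rest of these chromosomes had 5, 5 and 4, with a median of 27, 26 and 26 peaks per bin. On chromosomes 1 and 16, SA1 of CHM13 cells was empty in fewer bins, 7 of 35 and 4 of 27, and SA2 in 9 and 4. The SA1 medians there were 6 and 2 peaks per bin, against 15 and 12 in the rest. The fullest bin of chromosome 1 was 145 to 146 Mb for RAD21, with 69 peaks, and 120 to 121 Mb for SA1 and SA2, with 32 and 41. On chromosome 9 the bin at 82 to 83 Mb had the most peaks of RAD21 (60), SA1 (24) and SA2 (36). On chromosome 16 the bin at 30 to 31 Mb held 46 RAD21 peaks and the next bin 21 SA1 peaks.

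To place the edges, the longest run of bins with at most 25% of the median RAD21 count of the rest was taken as the low stretch of each region. It spanned 122 to 142 Mb of chromosome 1 (20 Mb), 45 to 77 Mb of chromosome 9 (32 Mb) and 36 to 52 Mb of chromosome 16 (16 Mb). When the same rule was applied to 23 whole chromosomes, chromosomes 9, 1 and 16 ranked 1, 2 and 4 in length, with chromosome 15 in between at 17 Mb. The other 20 chromosomes had a median of 6 Mb and a range of 3 to 17 Mb. CHM13 RAD21 set these limits, so its low count inside, 10 peaks in 68 Mb, is a property of the rule, and each value below that sets CHM13 RAD21 inside a stretch against another list is a description.

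The density changed within 1 bin at the edges of chromosome 1 and chromosome 9. RAD21 of CHM13 cells fell from 48 peaks in the last bin before the low stretch of chromosome 1 to 0, and from 20 to 0 on chromosome 9. It returned with 13, 36 and 56 peaks in the first 3 bins after the stretch on chromosome 1 and with 18 and 39 peaks on chromosome 16. The return on chromosome 9 was uneven, with 17, 7, 6, 10 and 33 peaks in the first 5 bins. On the short-arm side of chromosome 16 the fall was spread out, from 37 peaks at 31 to 32 Mb through 6, 10, 5 and 7 to 0.

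At 3 of the 6 edges, the nearest peak outside the low stretch lay at a single locus in every list. Some lists also had peaks inside the stretch near an edge, such as SA1 and SA2 of CHM13 cells at 141969958 to 141970338 of chromosome 1. The edges given here are therefore those of the stretch and not of each list. The last peak before the low stretch of chromosome 9 lay at 44863116 to 44863888 in all 6 lists, within 0.773 kb. The first peak after it lay at 77073714 to 77074427 in all 6, within 0.714 kb. After the low stretch of chromosome 1 the first peaks of the 6 lists lay at 142311070 to 142311908, within 0.839 kb. After that of chromosome 16, the first peaks of 5 lists lay at one locus, with RAD21 of CHM13 cells at 52350927 to 52351733. The first SA1 peak of RPE-1 cells lay at 52470265. The short-arm edges of chromosomes 1 and 16 were spread out. On chromosome 1 the last peaks were spread over 771 kb, from 121106550 for SA2 of RPE-1 cells to 121877997 for RAD21 of CHM13 cells. On chromosome 16 the last RPE-1 peaks before the stretch lay at 32376598 to 32377010. Those of CHM13 cells ended at 35493527 for SA1, 35493583 for RAD21 and 35731952 for SA2, so that the 6 last peaks spanned 3355 kb.

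**Figure D2:**
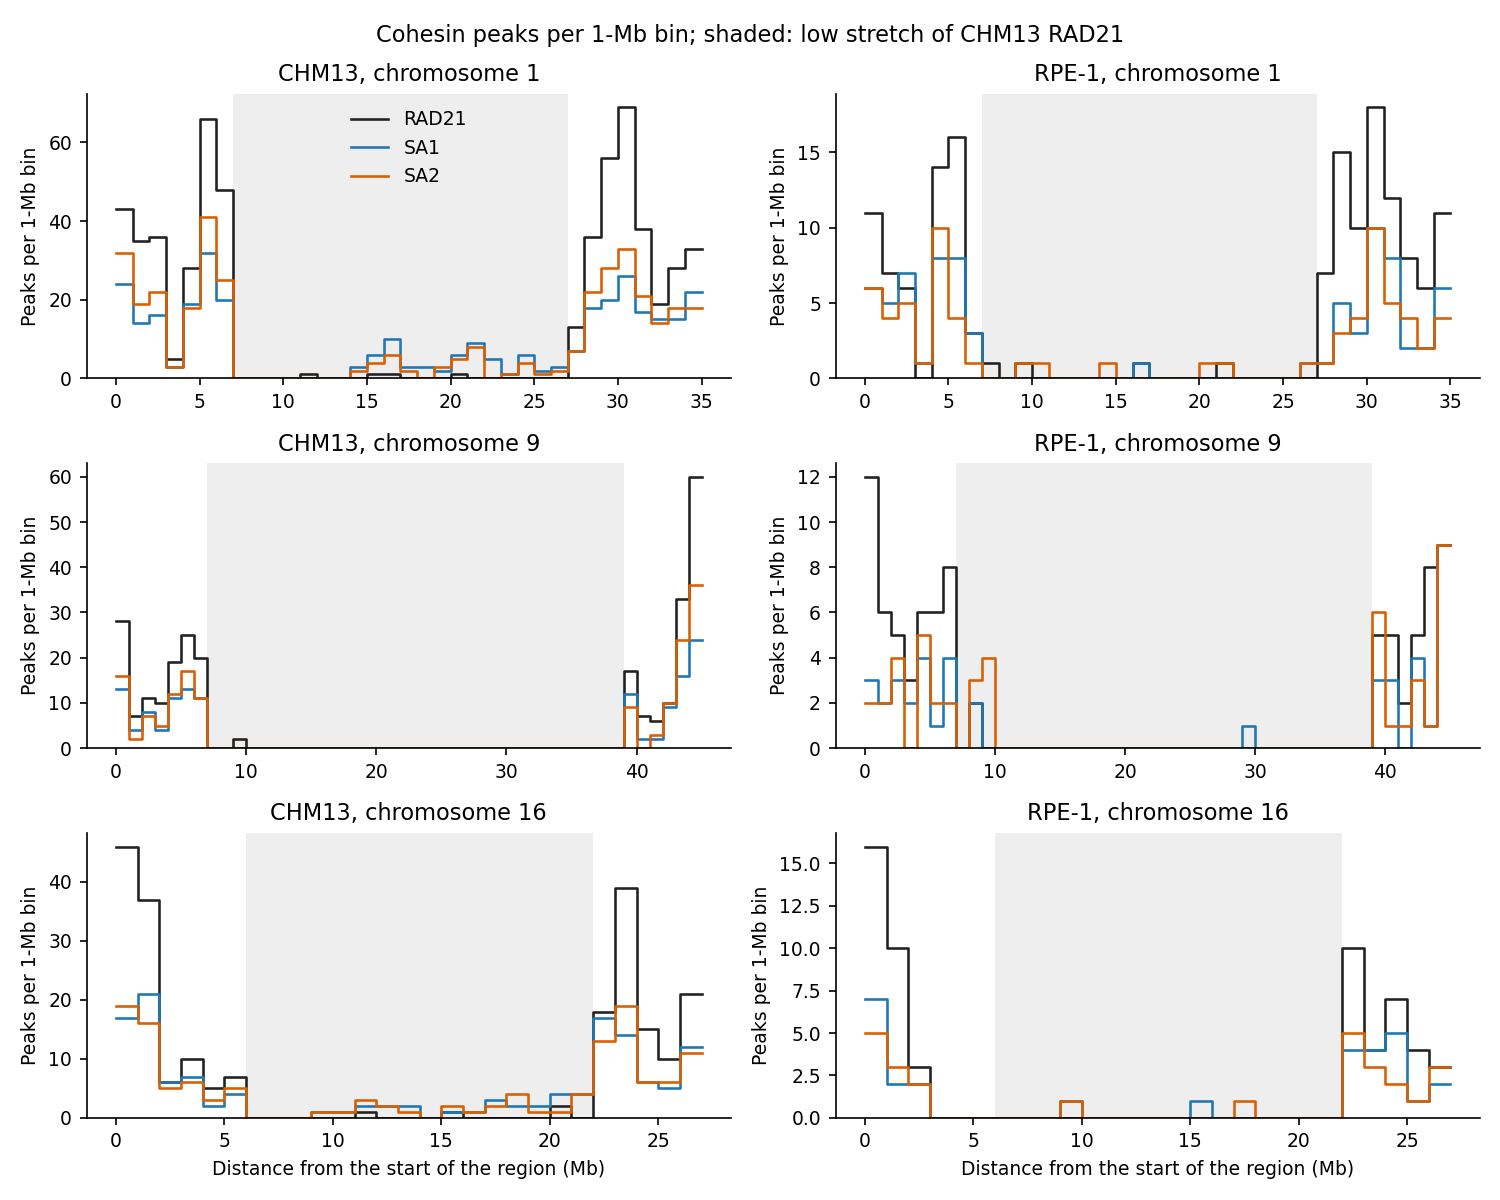
Peaks per 1-Mb bin (vertical axis) against the distance from the start of each region in Mb (horizontal axis), for each subunit in CHM13 cells (left) and RPE-1 cells (right), with the low stretch of CHM13 RAD21 shaded. CHM13 SA1 and SA2 continue at a low level through the right part of the shaded stretch on chromosomes 1 and 16 and are at 0 in all of it on chromosome 9.

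Outside the low stretches, the regions were not uniformly poor. The rule took bins low in CHM13 RAD21 out of these flanks, while the rest kept its own, with 5 empty of RAD21 on chromosome 1. The ratios in this paragraph are therefore a description. On chromosome 1, the 15 Mb beside the stretch held 36.9 RAD21 peaks per Mb against 29.3 in the rest, a ratio of 1.26 (1.15 to 1.37). SA1 and SA2 of CHM13 cells were also denser there, at 1.22 (1.07 to 1.38) and 1.24 (1.10 to 1.39), and RAD21 of RPE-1 cells at 1.40 (1.17 to 1.66). For SA1 and SA2 of RPE-1 cells, at 1.09 (0.851 to 1.38) and 1.04 (0.793 to 1.34), no excess was detectable. The flanking parts were sparser on chromosome 9, with a RAD21 ratio of 0.687 (0.602 to 0.781), and on chromosome 16, with 0.747 (0.646 to 0.862). For RAD21 of RPE-1 cells the ratios of chromosomes 9 and 16, at 1.07 (0.835 to 1.35) and 0.767 (0.572 to 1.01), did not differ from 1 beyond counting error.

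The low stretches of chromosomes 1 and 16 held scattered SA1 and SA2 peaks in CHM13 cells, and that of chromosome 9 held none. Chromosome 1 had 59 SA1 and 38 SA2 peaks with 4 RAD21 peaks. Chromosome 16 had 25 SA1 and 23 SA2 peaks with 4 RAD21 peaks. Chromosome 9 had 0 SA1 and 0 SA2 peaks and 2 RAD21 peaks. The densities of SA1 were 2.95 per Mb on chromosome 1 (95% exact Poisson interval 2.25 to 3.81), 1.56 on chromosome 16 (1.01 to 2.31) and 0 on chromosome 9 (0 to 0.115). A floor of 3 peaks in the 32 Mb of chromosome 9 corresponds to 0.0938 per Mb. The exact upper limit of the density of chromosome 9 relative to chromosome 1 was 0.0403 for SA1 and 0.0637 for SA2, and relative to chromosome 16 it was 0.0795 and 0.0870. These ratios were computed after the counts had been seen. The stretches were still poor in SA peaks, since SA1 was at 0.201 (0.152 to 0.260) of the rest on chromosome 1 and 0.123 (0.0789 to 0.182) on chromosome 16, and SA2 at 0.110 (0.0778 to 0.151) and 0.102 (0.0647 to 0.155).

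**Figure D3:**
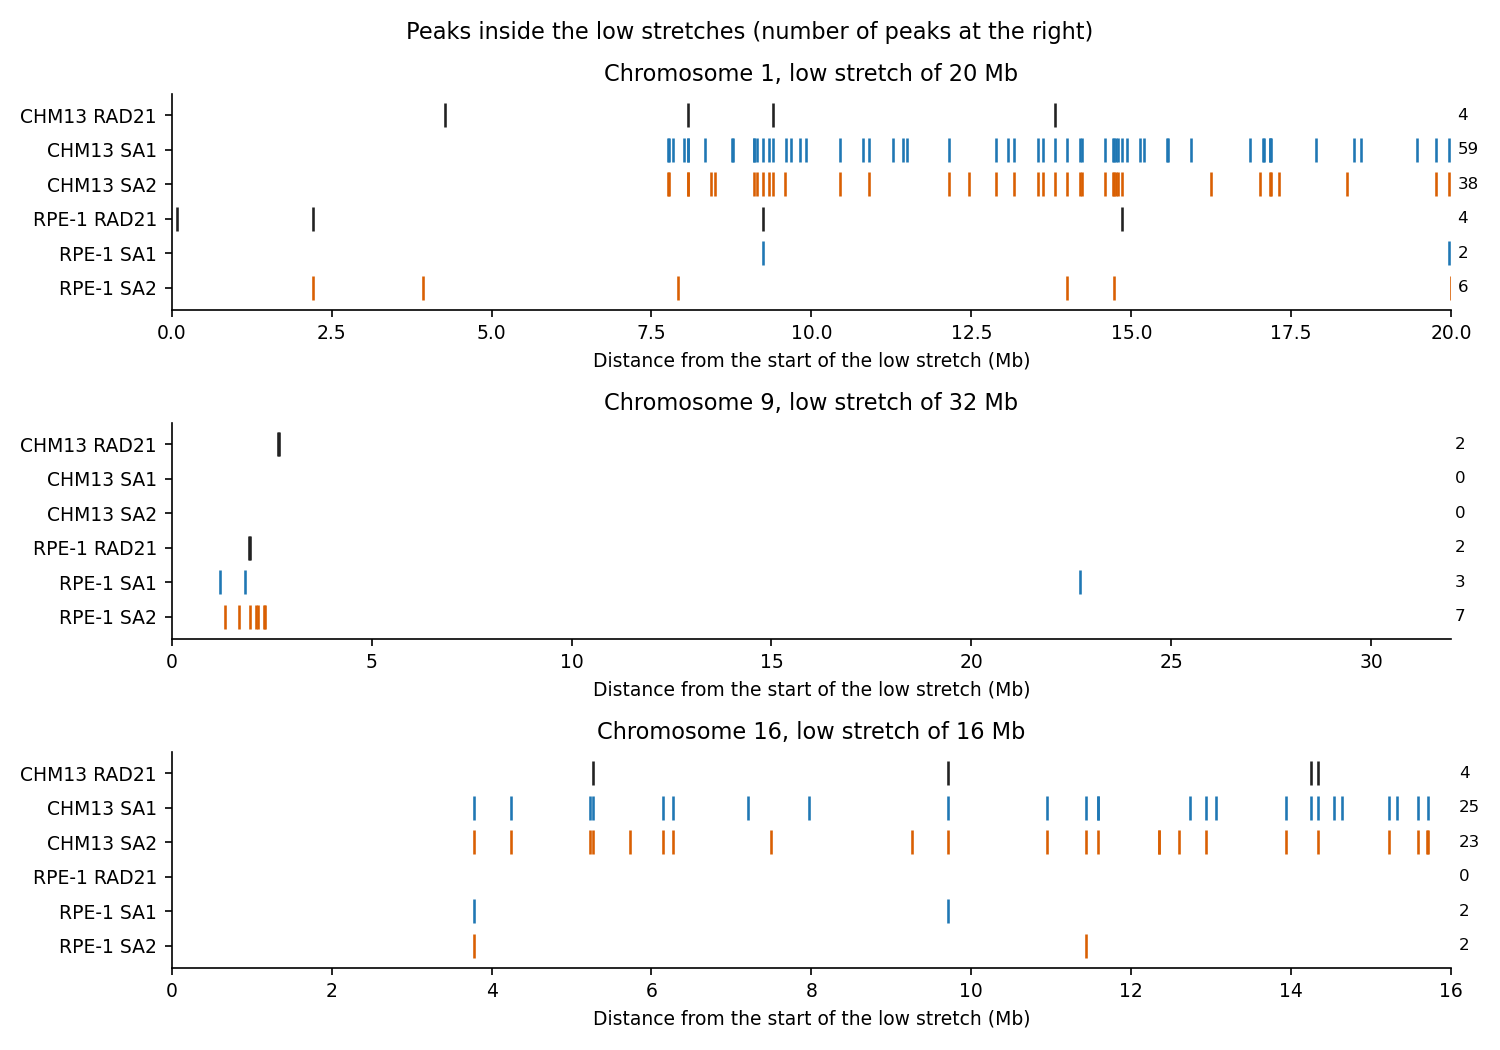
Position of each peak inside the low stretches, as the distance from the start of the stretch in Mb (horizontal axis), with 1 row per list and the number of peaks at the right. SA1 (59 and 25) and SA2 (38 and 23) of CHM13 cells fill the later part of the stretches of chromosomes 1 and 16, whereas the stretch of chromosome 9 is empty after its first few Mb but for 1 RPE-1 SA1 peak.

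These SA peaks were not spread over the whole stretch. On chromosome 1, none lay in the first 7 bins, and the first was at 129758269 for SA2 and 129758270 for SA1. From there SA1 was present in 13 of 13 bins up to 142 Mb, with 1 to 10 peaks per bin, and SA2 in 11. RAD21 of CHM13 cells was present in 3 of these 13 bins. On chromosome 16 the first 3 bins were empty, SA1 began at 39778947 and SA2 at 39778945, and each was present in 12 of the 13 bins up to 52 Mb, with at most 4 peaks per bin. RAD21 was again present in 3 of the 13. The median distance between neighbouring SA1 peaks was 115 kb in the stretch of chromosome 1 and 286 kb in that of chromosome 16, against 36.6 kb and 40.7 kb in the rest of each chromosome.

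Nearly all of the SA peaks in the stretches lacked RAD21. A peak counted as lacking RAD21 when it overlapped no RAD21 peak of the same cell line by at least 1 bp. This held for 56 of 59 SA1 and 35 of 38 SA2 peaks on chromosome 1, and for 21 of 25 and 20 of 23 on chromosome 16. Over all chromosomes the share was 2.54% for SA1 and 1.53% for SA2 of CHM13 cells, and the stretches, with 77 and 55 such peaks, held 8.21% and 8.20% of all of them. The stretches were drawn from the RAD21 list, so this share is a description. Across the whole regions, whose limits do not depend on RAD21, 14.9% of SA1 peaks (88 of 592) and 9.80% of SA2 peaks (63 of 643) lacked RAD21, against 2.49% and 0.930% in the rest. The odds ratio of lacking RAD21, region against rest, was 6.83 (95% interval 5.08 to 9.13) for SA1, with an adjusted p of 3.32e-33 in Fisher's exact test over the 4 SA lists, and 11.6 (7.89 to 17.0) for SA2, with an adjusted p of 2.69e-33. Peaks of 1 list are not replicates, so these p-values describe counting error alone. A CHM13 RAD21 replicate had fewer reads than the other CHM13 libraries, and the part of depth in these shares was not tested.

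The excess lay on chromosomes 1 and 16, and without chromosome 1 the odds ratio of SA1 was 3.89 (2.32 to 6.37). On chromosome 1, 19.0% of SA1 and 11.1% of SA2 peaks of the region lacked RAD21, and on chromosome 16 17.6% and 16.7%. On chromosome 9 the shares were 1.55% and 0.658%, where the rest of that chromosome had 2.02% and 1.01%, with odds ratios whose intervals spanned 1 (0.0872 to 3.08 and 0.0155 to 4.21). Within the regions but outside the low stretches, 2.17% of SA1 and 1.37% of SA2 peaks lacked RAD21.

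In RPE-1 cells a peak without RAD21 was common everywhere, at 21.3% of SA1 and 18.0% of SA2 peaks over all chromosomes. In the regions 16.2% of SA1 peaks lacked RAD21 against 16.9% in the rest (odds ratio 0.951, 0.576 to 1.51, adjusted p = 0.909 by Fisher's exact test). For SA2 the shares were 23.4% and 14.0% (odds ratio 1.88, 1.20 to 2.89, adjusted p = 0.00546 by the same exact test). The SA2 difference rested on chromosome 9, at 35.6% against 14.4%, and without that chromosome the odds ratio was 1.34 with an adjusted p of 0.382. When RAD21 peaks of either cell line counted as RAD21, the odds ratio was 6.24 for RPE-1 SA1 (adjusted p = 0.00420 by the same exact test) and 32.1 for RPE-1 SA2 (adjusted p = 9.57e-12). Chromosome 1 was left out only with RAD21 of the same cell line. For SA1 the odds ratio then moved from 0.951 to 1.71 (adjusted p = 0.105 by Fisher's exact test). For SA2 it moved from 1.88 to 3.19 (adjusted p = 0.000283 by Fisher's exact test).

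**Figure D4:**
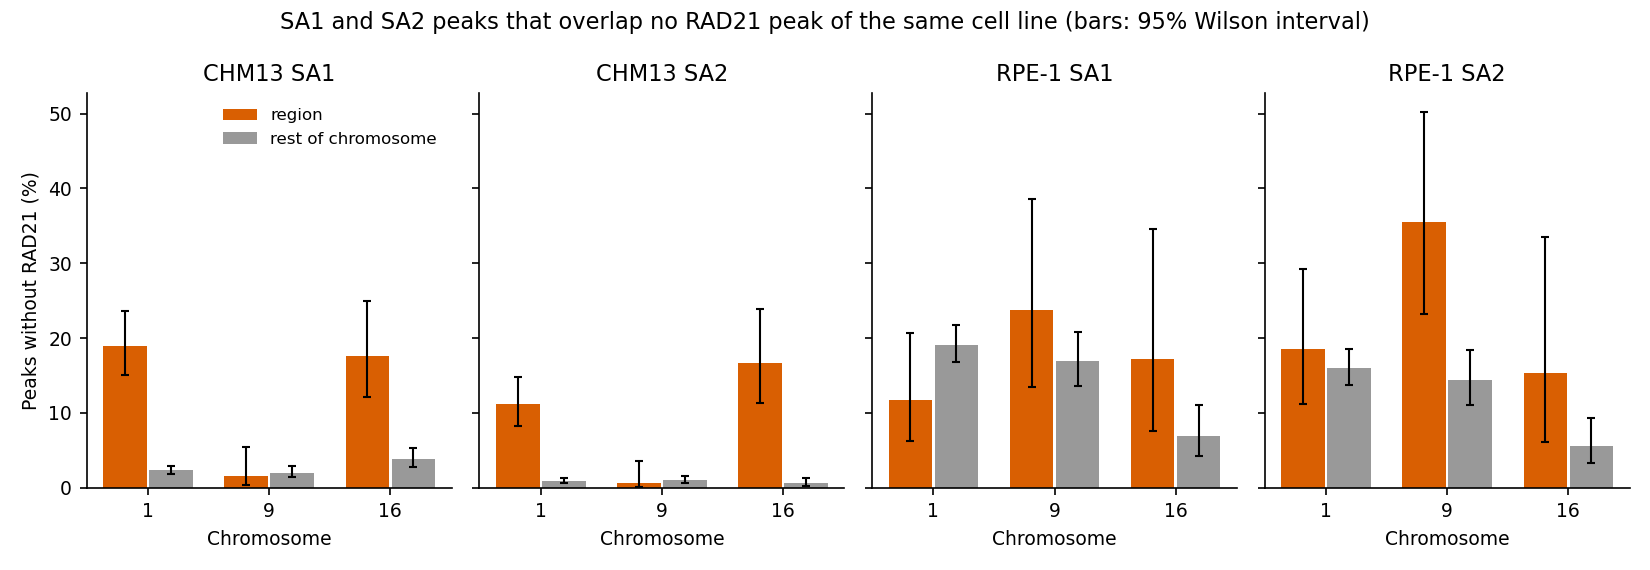
Share of SA1 and SA2 peaks that overlap no RAD21 peak of the same cell line (vertical axis, percent) in the region and in the rest of chromosomes 1, 9 and 16, with 95% Wilson intervals. In CHM13 cells the region stands above the rest on chromosomes 1 and 16 and not on chromosome 9, and in RPE-1 cells the intervals are wide.

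The SA peaks of the stretches were narrow. Their median width was 347 bp for SA1 and 345 bp for SA2 of CHM13 cells, and the widest were 543 bp and 621 bp, whereas peaks in the rest of the chromosomes had medians of 619 bp and 607 bp. SA1 peaks without RAD21 in the rest had a median of 552 bp, and SA2 peaks without RAD21 there 402 bp. The RAD21 peaks of the stretches had a median of 372.5 bp against 722 bp in the rest. The lists give no height, so narrow peaks could not be ranked by strength. No filter on mapping quality is named for these lists, and the part of reads placed among repeat copies in these calls was not tested. The widest SA1 peaks without RAD21 in the regions lay at 31504862 to 31505478 of chromosome 16 (617 bp), 136228600 to 136229142 of chromosome 1 (543 bp) and 31174407 to 31174855 of chromosome 16 (449 bp). For SA2 they lay at 48597609 to 48598229 of chromosome 16 (621 bp), 148501048 to 148501588 of chromosome 1 (541 bp) and 81474400 to 81474933 of chromosome 9 (534 bp).

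SA1 peaks of CHM13 cells shared a site with SA2 less often in the stretches than in the rest, and SA2 peaks about as often. Overlapping peaks of any list were merged into 120 loci, of which 74 lay on chromosome 1, 14 on chromosome 9 and 32 on chromosome 16. SA1 and SA2 of CHM13 cells met at 46 loci, 38 of them without a RAD21 peak of either line. The shared peaks were 54.8% of the SA1 and 75.4% of the SA2 peaks of the stretches, and in the rest of the chromosomes the shares were 87.1% and 74.8%. No locus was found in all 6 lists, and 72 were found in 1 list.

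RAD21 was found in CHM13 cells at 10 isolated peaks in the stretches. On chromosome 1 they began at 126269759, 130077805, 131406015 and 135810608 to within the width of their locus. The last 3 carried both SA1 and SA2, and the first, alone, was the single CHM13 peak in the opening 7 bins. On chromosome 16 the loci at 41274093, 45703268 and 50339869 carried RAD21, SA1 and SA2, and that at 50244526 RAD21 and SA1. On chromosome 9 the only CHM13 peaks were 2 of RAD21 at 47665045 to 47665489 and 47672996 to 47673409, with no SA1 or SA2 at either. Both SA lists of CHM13 cells were empty for 32.2 Mb of chromosome 9, and the RAD21 list for 29.4 Mb after the second of these peaks.

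RPE-1 cells had few peaks in the stretches, 6 of RAD21, 7 of SA1 and 15 of SA2. They fell at 25 loci, of which 7 also had a CHM13 peak. Over all chromosomes the share of RPE-1 peaks without a CHM13 peak of the same subunit was 3.00% (RAD21), 2.91% (SA1) and 2.38% (SA2). On chromosome 9, none of the 12 RPE-1 loci was shared. Of these, 11 lay between 46209527 and 47321136, with RAD21 at 46944612 to 46945249 and 46958465 to 46959387, SA1 at 46209527 and 46831133 and SA2 at the other 7. The remaining one was an SA1 peak of 1162 bp at 67729596 to 67730757, the widest RPE-1 SA1 peak of the regions. It separated the 2 longest intervals of chromosome 9 without a peak of any list, 20.1 Mb from 47673410 to 67729595 and 9.34 Mb from 67730758 to 77073713. The corresponding longest intervals were 3.49 Mb on chromosome 1, from 126270128 to 129758268, and 4.05 Mb on chromosome 16, from 35731953 to 39778944.

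On chromosomes 1 and 16, some RPE-1 peaks fell exactly where CHM13 SA peaks did. At 39778945 to 39779356 of chromosome 16, the first SA locus of the stretch, SA1 and SA2 of both lines overlapped without RAD21. At 131240288 to 131240727 of chromosome 1, SA1 and SA2 of CHM13 cells overlapped RAD21 and SA1 of RPE-1 cells. SA2 of RPE-1 cells overlapped SA1 and SA2 of CHM13 cells at 135991217 and 136726077 of chromosome 1 and at 47429505 of chromosome 16. RAD21 of RPE-1 cells lay at 136851553 of chromosome 1 on SA1 and SA2 of CHM13 cells, and SA1 of RPE-1 cells at 45703268 of chromosome 16 on all 3 CHM13 subunits. The RPE-1 RAD21 peaks at 122083914 and 124207799 of chromosome 1, the second with SA2, had no CHM13 partner.

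The cell lines differed in the number of SA1 peaks in the stretches relative to elsewhere. CHM13 had 84 SA1 peaks there to 7 in RPE-1, a ratio of 12, against 3.38 in the rest (odds ratio 3.55, 1.65 to 9.12). For SA2 the ratio was 4.07 against 4.34 (odds ratio 0.937, 0.524 to 1.78) and for RAD21, whose CHM13 list set the stretches low, 1.67 against 4.35. This comparison was chosen after the counts had been seen and carries no p. Over the whole regions, RAD21 peaks of CHM13 cells were 3.59 times as many as those of RPE-1 cells, against 4.35 in the rest (odds ratio 0.826, 0.718 to 0.951, adjusted p = 0.0216 by Fisher's exact test over 3 subunits). The RAD21 antibody differed between the lines. The difference lay mainly on chromosome 9, at 0.633 (0.484 to 0.834), while the intervals of chromosome 1, at 0.882 (0.727 to 1.07), and chromosome 16, at 0.992 (0.724 to 1.38), included 1. Without chromosome 9 the odds ratio was 0.907 with an adjusted p of 0.237, and with peaks closer than 1 kb joined it was 0.856 with an adjusted p of 0.0935. For SA1 and SA2 no difference was detectable, with odds ratios of 1.18 (0.978 to 1.44, adjusted p = 0.119) and 1.05 (0.866 to 1.28, adjusted p = 0.665) in the same exact test.

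Most RPE-1 peaks of the regions were found again in CHM13 cells, but few in the stretches, where 4 of 15 SA2 and 3 of 7 SA1 peaks were. For RAD21 it was 0 of 6, in stretches drawn where CHM13 RAD21 is nearly absent. In the regions 94.8% (RAD21), 95.3% (SA1) and 90.1% (SA2) of the RPE-1 peaks overlapped a CHM13 peak of the same subunit, against 98.1%, 98.4% and 99.2% in the rest. The odds ratios of overlap, region against rest, were 0.357 (0.194 to 0.695), 0.330 (0.136 to 0.917) and 0.0751 (0.0311 to 0.180), with adjusted p of 0.00208, 0.0169 and 1.04e-08 in Fisher's exact test over 3 subunits. The shares were lowest on chromosome 9, at 86.6% (RAD21), 88.1% (SA1) and 77.8% (SA2), and 100% on chromosome 16 for each subunit. Without chromosome 9 the difference was no longer past the threshold for RAD21 (odds ratio 0.847, adjusted p = 0.772) and SA1 (0.795, adjusted p = 0.772) by the same exact test, and that of SA2 moved to 0.146 (adjusted p = 0.0244). When at least 50% of both peaks had to overlap, the odds ratios were nearer to 1, at 0.585 for RAD21, 0.573 for SA2 and 0.990 for SA1, whose adjusted p of 1 was no longer past the threshold.

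The balance of SA2 to SA1 was not shifted across the regions as a whole. There were 1.09 SA2 peaks per SA1 peak in the regions and 1.16 in the rest in CHM13 cells (odds ratio 0.934, 0.829 to 1.05, adjusted p = 0.509 by Fisher's exact test), and 0.953 and 0.905 in RPE-1 cells (odds ratio 1.05, 0.820 to 1.35, adjusted p = 0.712). RAD21 peaks of CHM13 cells carried both SA subunits in 43.0% of cases in the regions and 42.5% in the rest. In RPE-1 cells the shares were 29.3% and 39.7%.

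On hg38, which lacks the blocks themselves, CHM13 SA1 peaks were denser on both sides of the run of N of chromosome 1. They were also denser on the short-arm side of that of chromosome 9, and not at the others. On CHM13 v1.0 the same SA1 libraries had 0 peaks in the first 7 bins of the low stretch of chromosome 1. They also had 0 peaks in the 32 Mb of that of chromosome 9. No coordinates were converted, so the bins of the 2 builds cannot be matched. These margins were set by distance to the run, and their repeat class was not mapped. In the 5 Mb on each side of the 3 runs of N, SA1 density was 1.20 times that of the rest of the chromosomes (1.09 to 1.32), whereas RAD21 was at 0.651 (0.596 to 0.710) and SA2 at 0.943 (0.854 to 1.04). On the short-arm side of chromosome 1, SA1 stood at 31.4 peaks per Mb, a ratio of 2.12 (1.80 to 2.50), SA2 at a ratio of 1.59 (1.33 to 1.89) and RAD21 at 27.1 per Mb, a ratio of 0.921 (0.771 to 1.09). On that of chromosome 9, SA1 stood at 21.9 per Mb, a ratio of 1.65 (1.34 to 2.00), and RAD21 at 11.9, a ratio of 0.428 (0.325 to 0.554). The bin from 1 to 2 Mb before the run of chromosome 9 held 48 SA1, 28 SA2 and 2 RAD21 peaks. On the long-arm side of chromosome 1, SA1 was at 1.49 (1.22 to 1.80), SA2 at 1.41 (1.17 to 1.69) and RAD21 at 1.20 (1.03 to 1.40). SA1 was not raised on the long-arm sides of chromosome 9, at 0.611 (0.419 to 0.862), and of chromosome 16, at 0.946 (0.718 to 1.23). On the short-arm side of chromosome 16 all subunits were scarce, with 12 RAD21, 16 SA1 and 19 SA2 peaks. In RPE-1 cells RAD21 had a ratio of 0.872 (0.737 to 1.03), SA1 of 0.688 (0.545 to 0.858) and SA2 of 0.957 (0.744 to 1.21). With 2 Mb on each side in place of 5 Mb, the ratios of SA2 of CHM13 cells and of RAD21 and SA2 of RPE-1 cells turned to 1.11, 1.08 and 1.35, and that of RPE-1 SA1, at 0.753, no longer differed from 1 beyond counting error. How reads were placed on hg38 is not described in the sources used here. The part of reads from the absent blocks in these counts was not tested.

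**Figure D5:**
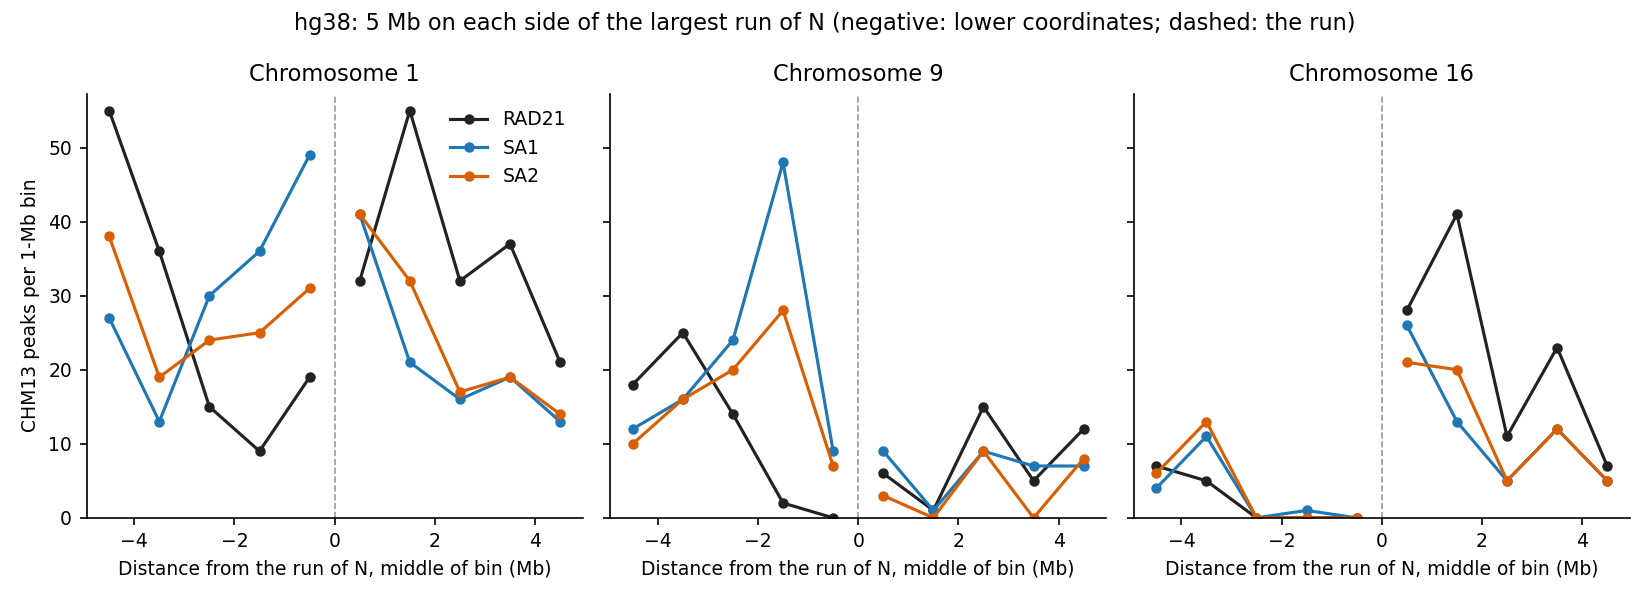
CHM13 peaks per 1-Mb bin (vertical axis) on hg38 against the distance of the bin from the largest run of N in Mb (horizontal axis), for chromosomes 1, 9 and 16. SA1 exceeds RAD21 in the bins just before the run on chromosomes 1 and 9, with 49 against 19 and 9 against 0 in the last bin.

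Of the SA1 peaks of CHM13 cells in these margins 40.7% (197 of 484) lacked RAD21, and of the SA2 peaks 30.0% (133 of 443), against 2.51% and 1.01% in the rest of the 3 chromosomes. The share of SA1 peaks was highest on the short-arm sides, at 53.5% on chromosome 1, 67.9% on chromosome 9 and 43.8% on chromosome 16. AGGNGGC was found in 1 of the 197 SA1 windows without RAD21 and in 72 of the 287 with RAD21, or 0.508% and 25.1%. Over the whole genome it was found in 12.7% of the 2110 SA1 peaks without RAD21. For SA2 in the margins it was found in 0 of 133 and in 24.8% of 310. At least 10% of the bases lay in CATTC or GAATG in 15.7% of the SA1 and 21.8% of the SA2 windows without RAD21 and in 6.97% and 6.45% of those with RAD21 in the same margins. Over all windows of each list the shares were 0.457% and 0.378%. These counts were made after the peaks had been seen and have no test.

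A piece of chromosome 1 that hg38 does not place, of 66860 bp, held mostly SA1 and SA2 peaks. It was chosen after its counts had been seen. It held 12 SA1 and 12 SA2 peaks of CHM13 cells with 2 of RAD21, and 1 RAD21, 0 SA1 and 2 SA2 peaks of RPE-1 cells. At least 10% of the bases lay in CATTC or GAATG in 11 of the 12 SA1 and in all 12 SA2 windows, and none of them had AGGNGGC. The window of an SA1 and SA2 peak of 761 bp without RAD21, at 4231 to 4991 of that sequence, is shown for comparison with those at the runs of N, with CATTC or GAATG in capitals over 28.3% of its bases.
Unplaced sequence of chromosome 1, positions 4461 to 4760: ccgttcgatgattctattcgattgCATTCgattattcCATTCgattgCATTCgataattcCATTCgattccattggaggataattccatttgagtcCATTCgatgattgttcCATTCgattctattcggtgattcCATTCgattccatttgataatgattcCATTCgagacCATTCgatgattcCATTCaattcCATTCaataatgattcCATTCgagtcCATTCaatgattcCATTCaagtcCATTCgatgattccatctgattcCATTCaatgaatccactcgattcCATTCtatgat

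Genes were few near the runs but for the long-arm sides of chromosomes 1 and 16, with 41 and 28 within 5 Mb. The other sides had 4 to 6. Within 5 Mb, GENCODE 44 has 88 protein-coding genes on the 3 chromosomes, and 38 of them (43.2%) had a RAD21, 23 (26.1%) an SA1 and 24 (27.3%) an SA2 peak of CHM13 cells within 1 kb of their start, against 33.9%, 16.6% and 12.7% of the 3607 genes elsewhere on them. All 3 subunits were present at 17 starts (19.3%), against 324 (8.98%) elsewhere. The long-arm sides of chromosomes 1 and 16 held 20 and 11 of the 38 starts with RAD21. The long-arm side of chromosome 9 had no CHM13 peak at its 4 genes. The genes nearest to the run of chromosome 1 were the duplicated FAM72B and SRGAP2C at 3999 and 4000 kb on the short-arm side, whose starts lie close together and both had all 3 subunits. On its long-arm side H3-7, a histone H3 gene, at 721 kb had RAD21 alone and FAM72C at 787 kb RAD21 and SA2. Next with all 3 subunits came SRGAP2B and FAM72D at 1911 kb and the integrin gene ITGA10 at 2726 kb, the last with RAD21 of RPE-1 cells as well. The FAM72 genes are near-identical copies within their family, as are the SRGAP2 genes within theirs, so their peaks are uncertain. PPIAL4A at 4295 kb and PPIAL4E at 1189 kb, of a family of cyclophilin copies, had no peak.

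On chromosome 9 the nearest genes also belong to duplicated families. CNTNAP3B, of the contactin-associated protein family, had all 3 CHM13 subunits at 3389 kb on the short-arm side, while SPATA31A6 at 3335 kb and ZNG1F at 4319 kb had no peak. On the long-arm side SPATA31A5 at 396 kb and SPATA31A7 at 671 kb had no peak and CNTNAP3C at 812 kb only RAD21 of RPE-1 cells. On chromosome 16 the immunoglobulin segment IGHV3OR16-17 at 4435 kb had all 3 CHM13 subunits, and TP53TG3F at 4821 kb and ENSG00000284209 at 3900 kb had none. On the long-arm side SHCBP1 at 241 kb had no peak, and VPS35, a subunit of the retromer complex, and ORC6, a subunit of the origin recognition complex, had RAD21 alone at 309 kb, where their starts lie side by side. NETO2 at 763 kb, PHKB, a subunit of phosphorylase kinase, at 1080 kb and the transporter gene ABCC12 at 1775 kb had all 3 CHM13 subunits. NETO2 also had RAD21 of RPE-1 cells and ABCC12 all 3 RPE-1 subunits.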

How the data were processed

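Per the methods of the study, the authors aligned paired reads to CHM13 v1.0 with bwa mem, dropped secondary and supplementary alignments (samtools), ran macs on single replicates and kept loci found in more than 1 replicate. No filter on mapping quality and no input control are named for these calls. How reads were aligned to hg38 is not given in the sources used here. The submitters' processing notes name bcl2fastq 2.20, BWA, SAMtools and MACS2. The deposited lists hold the chromosome, start and end of each peak in bp, with no count, signal or score. There were 12 lists, 6 per build. Each list pools 3 CHM13 or 2 RPE-1 replicates, so no error between replicates could be computed. The read depths that the paper reports were not used. The precision of each value is set by the number of peaks behind it.

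Peaks were assigned by their centre, shown 1-based. The length of a chromosome on CHM13 v1.0 was taken as the end of its last peak in any list. Densities carry exact Poisson intervals and ratios conditional exact intervals, at 95%. Shares carry Wilson intervals and were compared by two-sided Fisher's exact tests with Benjamini-Hochberg adjustment over the lists of a comparison and a threshold of 0.05. A low stretch was the longest run of 1-Mb bins at or below 25% of the median RAD21 count of CHM13 cells outside the region. On hg38, densities are per Mb without N, and gene starts come from GENCODE 44. A motif was searched on both strands of the 300 bp at the centre of a peak, and a base shared by neighbouring CATTC or GAATG units was counted once. Promoters are those of RefSeq. No coordinates were converted between builds and no sequence of CHM13 v1.0 was used. The statistics, tested on simulated data, used scipy 1.17.1 and numpy 2.4.6 under Python 3.11.15. Tables were read with pandas 2.3.3 and sequences with pysam 0.24.0, and plots were drawn by matplotlib 3.10.9.

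The regions, lists and comparisons were chosen with earlier results of these data known. Named sites were the peaks in the low stretches (up to 30), the peaks at their edges and at the longest peak-free intervals, the bins with the highest and lowest counts, the 3 widest SA peaks without RAD21 per list, the hg38 RAD21 peak nearest to each run of N, and on each side the 3 nearest genes and the 3 nearest genes with all 3 CHM13 subunits at the start. Alternatives changed the joining of peaks, peak width, covered bases, region limits, the limit and bin of the low stretch, overlap rules, flank width and the chromosomes included.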

Additional observations from a re-analysis of the deposited data

Results flagged for a closer look

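The effect of region against rest differed between the cell lines for RAD21, with an odds ratio of CHM13 to RPE-1 peak numbers of 0.826 and an adjusted p of 0.0216 by Fisher's exact test. The test covers counting error in pooled lists, the RAD21 antibody differed between the lines, and the call was lost without chromosome 9 (0.907, adjusted p = 0.237) and with peaks closer than 1 kb joined (0.856, adjusted p = 0.0935, the same exact test). A search for single samples far from their group could not be made, since each list pools its replicates.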

How the results depend on the processing

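Of 148 recomputed values, 131 were counted as kept. Ratios had to keep their direction and their side of the threshold. Lengths had to stay within 1.5 times, and covered bases within the main interval. The 131 values include all 42 of region density against rest, which ranged from 0.240 to 0.525, and all 15 stretch lengths. They also include the low-stretch densities of the 5 lists other than CHM13 RAD21. Those of CHM13 RAD21 were counted too, though the rule fixes their direction. Stretches drawn at 10% of the median were the main stretches, so their 6 densities were bound to stay the same. With stretches drawn at 50% of the median, the low-stretch density against rest moved from 0.0135 to 0.0335 for RPE-1 RAD21, and from 0.00517 to 0.0246 for CHM13 RAD21, whose direction the rule fixes. The odds ratios of CHM13 SA peaks without RAD21 kept their call under each alternative, leaving out any chromosome included, and that of SA1 was lowest without chromosome 1, at 3.89. The cause of the changes below was not tested. For SA peaks without RAD21 in RPE-1 cells, SA1 turned to 6.24 with RAD21 of both cell lines and to 1.71 without chromosome 1, and SA2 moved from 1.88 to 32.1 and 3.19 under these and lost its call at 1.34 without chromosome 9. The sharing of RPE-1 peaks with CHM13 lost its call for SA1 at an overlap of 50% of both peaks (0.990) and without chromosome 9 (0.795), and for RAD21 without chromosome 9 (0.847). That of SA2 moved to 0.573 and 0.146 under these, and that of RAD21 to 0.585 under the first. The CHM13 to RPE-1 ratio of RAD21 numbers lost its call with joined peaks (0.856) and without chromosome 9 (0.907), and that of SA2 turned to 0.880 without chromosome 1. SA2 against SA1 in RPE-1 cells turned to 0.929 among peaks with RAD21 and to 0.978 without chromosome 9. On hg38 with 2 Mb flanks, CHM13 SA2 turned to 1.11, RPE-1 RAD21 to 1.08 and RPE-1 SA2 to 1.35, and RPE-1 SA1 lost its call at 0.753. With joined peaks CHM13 SA2 (0.904) and RPE-1 RAD21 (0.842) gained one. No paired analysis was possible because each list pools its replicates, and for the same reason no replicate could be left out.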
